A study of Mus musculus with 10 samples.

Results

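A set of 10 genes of the Notch signalling pathway were followed through the conversion of mouse embryonic fibroblasts toward induced pluripotency. The genes were chosen by symbol as the 4 receptors Notch1, Notch2, Notch3 and Notch4, the 3 ligands Jag1, Jag2 and Dll1, and the 3 target genes Hes1, Hey1 and Heyl. These are 10 of the 45706 genes in the deposited tables, and all 10 passed the filter on low counts. RNA was measured in 10 libraries, 2 for each of 5 groups. The MEF group held uninduced embryonic fibroblasts of a C57BL/6 x 129 background, unsorted and in MEF medium without doxycycline. These cells carry a doxycycline-inducible polycistronic cassette of the reprogramming factors Oct4, Klf4, Sox2 and Myc (OKSM) in the Col1a1 locus and the transactivator M2rtTA in the Rosa26 locus. The day 3, day 6 and day 9 groups were cells of that genotype in ESC medium with 1 µg/ml doxycycline and 50 µg/ml ascorbic acid. Day 3 cells were unsorted, and day 6 and day 9 cells were sorted as positive for SSEA1, a surface carbohydrate of early pluripotent cells. The ESC group was V6.5, an embryonic stem cell line of the same labelled background without the cassette, unsorted and grown in ESC medium on irradiated feeder cells. Day 3 with MEF therefore combines the factors, ascorbic acid and the medium, day 6 with day 3 combines time and sorting, and ESC with any other group combines cell state, genotype and culture, and with day 6 or day 9 also sorting.

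In Notch signalling, a ligand on one cell binds a receptor on its neighbour. The bound receptor is cut by an ADAM protease and then by gamma-secretase, and the freed intracellular domain enters the nucleus, where it joins the DNA-binding protein RBPJ and a Mastermind coactivator to switch on genes such as those of the Hes and Hey families. Hes and Hey proteins are basic helix-loop-helix repressors. The pathway is known for cell fate choices between neighbouring cells, and in blood vessels and their supporting mural cells Notch3, Jag1 and Heyl are typical members. RNA levels do not measure cleavage of a receptor, and in bulk samples fewer expressing cells and less RNA per cell cannot be told apart.

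Libraries held 29585876 to 38275024 estimated reads. The 10 fibroblast markers summed to 49094 to 50553 CPM (read counts scaled to a common depth with TMM) in MEF, 4123 to 4142 at day 3, 234 to 248 at day 6, 103 to 110 at day 9 and 4354 to 4501 in ESC. All 8 pluripotency markers had a mean of at least 1 CPM at day 9 and in ESC, where they summed to 528 to 533 and 3391 to 3460 CPM, against 1.99 to 2.56 CPM in MEF. Nanog, a pluripotency factor, had a mean of 1.11 CPM in MEF and 525 CPM in ESC.

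The receptors lie on GRCm38 at chr2:26457903-26516663 (Notch1, minus strand), chr3:98013527-98150361 (Notch2, plus), chr17:32120820-32166852 (Notch3, minus) and chr17:34564268-34588503 (Notch4, plus). The ligands lie at chr2:137081456-137116644 (Jag1, minus), chr12:112907819-112929776 (Jag2, minus) and chr17:15367354-15376872 (Dll1, minus). The targets lie at chr16:30064384-30067796 (Hes1, plus), chr3:8663359-8667256 (Hey1, minus) and chr4:123233556-123249875 (Heyl, plus). Notch1, Notch2, Notch3 and Dll1 share exonic bases with other annotated genes. Notch1 shares 1068 bases with 0610009E02Rik and 414 with Gm13568, Notch3 shares 488 with Gm17276 and Dll1 shares 867 with A930024N18Rik, all on the opposite strand. Notch2 shares 541 bases with Gm42820 on the same strand. The sources used here do not state whether quantification used strand, so reads in these bases cannot be assigned with certainty.

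Promoter windows from RefSeq (GRCm38.p6, 250 bases before to 50 after a start site) were found for 7 of the 10 members, in 8 windows, because Dll1 had 2. The targets Hes1, Hey1 and Heyl had no window, so their promoters were not examined. Shown here are stretches for 3 genes whose levels differed between stages, as described below: Notch3, which dipped at day 3, Notch4, which came up at day 6, and Dll1, which was high only in ESC among the 5 groups. Each is written 5′ to 3′ on the strand of its gene and ends before the start site or before the first base that GENCODE M21 annotates as an exon of the gene. The stretches are chr17:32166891-32167140 (minus) for Notch3, chr17:34564045-34564267 (plus) for Notch4, and chr17:15375977-15376073 and chr17:15376933-15377182 (minus) for the first and second Dll1 window.
Notch3: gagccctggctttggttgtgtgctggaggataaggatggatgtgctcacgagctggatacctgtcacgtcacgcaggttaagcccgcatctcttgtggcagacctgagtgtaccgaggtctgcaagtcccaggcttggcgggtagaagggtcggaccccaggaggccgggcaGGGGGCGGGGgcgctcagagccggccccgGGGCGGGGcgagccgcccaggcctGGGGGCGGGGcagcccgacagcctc
Notch4: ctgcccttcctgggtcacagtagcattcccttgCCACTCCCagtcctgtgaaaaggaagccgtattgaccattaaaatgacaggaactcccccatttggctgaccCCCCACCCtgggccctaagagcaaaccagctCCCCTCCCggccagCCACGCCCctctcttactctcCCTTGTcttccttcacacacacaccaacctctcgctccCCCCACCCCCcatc
Dll1, first window: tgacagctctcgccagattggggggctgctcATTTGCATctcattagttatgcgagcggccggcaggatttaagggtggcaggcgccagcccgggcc
Dll1, second window: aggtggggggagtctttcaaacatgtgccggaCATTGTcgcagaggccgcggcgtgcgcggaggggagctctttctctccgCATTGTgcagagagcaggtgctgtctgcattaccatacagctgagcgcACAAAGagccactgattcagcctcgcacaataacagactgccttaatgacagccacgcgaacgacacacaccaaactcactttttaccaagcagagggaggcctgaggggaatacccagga
Capitals mark matches, on either strand, to 5 motifs: ATTTGCAT (octamer, bound by Oct4), ACAANG (SOX), GGGNGNGG (KLF), TGGGAA (RBPJ core) and CACGTG (the E-box bound by Myc). Matches to different motifs did not overlap in any of the 8 windows. Notch3 held 5 KLF matches in its window, some overlapping each other, and Notch4 held 6. The KLF letters occurred in 49.5% of the 32851 RefSeq windows of 300 bases and the SOX letters in 41.2%. The octamer matched once, in the first Dll1 window, and occurred in 1.74% of all windows. The RBPJ core was in none of the 8 member windows, all of them of receptors and ligands, and in 25.6% of all windows. The E-box was in none of the 8 and in 7.15% of all. These are matches of letters within short windows and say nothing of binding.

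**Figure D1:**
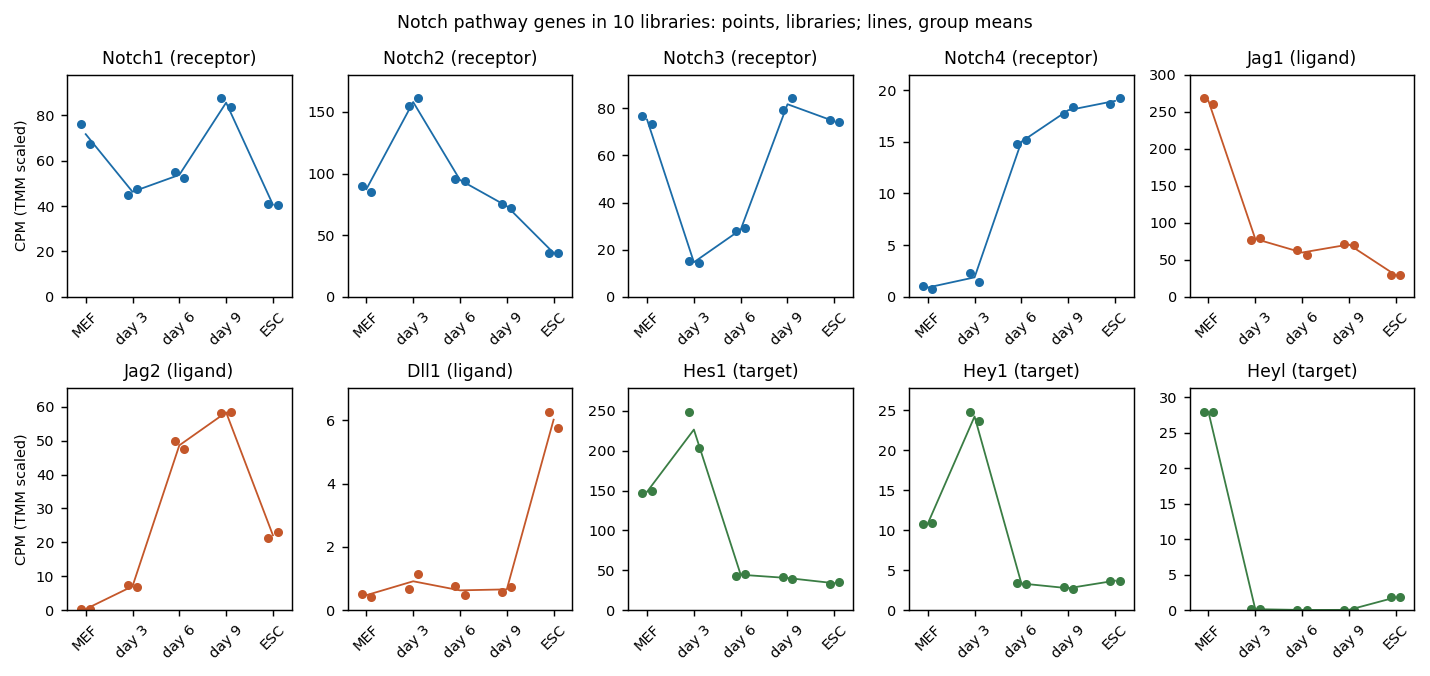
CPM of the 10 genes (vertical axis, from 0, own scale in each panel) by group (horizontal axis), with 1 point per library and a line through the group means. Hes1 and Hey1 were highest at day 3, Heyl and Jag1 in MEF, Jag2 at day 9, and Dll1 stayed under 1.2 CPM in every library outside ESC.

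Notch1 was highest at day 9 and Notch2 at day 3, Notch3 was low at day 3 and high in MEF, at day 9 and in ESC, and Notch4 was high from day 6 on. Notch1, a broadly expressed receptor, had 76.1 and 67.3 CPM in MEF, 45 and 47.6 at day 3, 55.2 and 52.3 at day 6, 87.5 and 83.7 at day 9, and 40.8 and 40.4 in ESC. The day 9 libraries were the highest and the ESC libraries the lowest, and no 2 groups overlapped. Its fold changes stayed under 2 in the 3 steps from MEF to day 9 (log2 -0.63, 0.22 and 0.67), and it fell from day 9 to ESC by 1.08 on the log2 scale (SE 0.06, edgeR adjusted p = 5.7e-10). That last call was lost with limma on the summed transcript TPM (abundance scaled by length and depth), at -0.86 on log2(TPM + 1) and -0.9 on log2(TPM + 0.1), both with an adjusted p of 0.17. Notch2, the receptor with the longest transcript used here, had 89.6 and 85.1 CPM in MEF, 155 and 161 at day 3, 95.6 and 93.9 at day 6, 75.0 and 72.1 at day 9, and 35.4 and 35.7 in ESC. It peaked at day 3, with a log2 difference from MEF of 0.85 (SE 0.04, edgeR adjusted p = 1e-10) that stayed under the 2-fold minimum. From day 9 to ESC Notch2 fell by 1.05 on the log2 scale (SE 0.04, edgeR adjusted p = 3.8e-11), close to the minimum. It fell short of it with DESeq2 (-0.98), with a filter of 10 CPM in 2 libraries and with scaling by total reads only (both -1.0 after rounding), and on log2(TPM + 1) (-0.62) and log2(TPM + 0.1) (-0.85).

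Notch3, the receptor typical of mural cells, had 76.9 and 73.4 CPM in MEF and only 15.0 and 14.3 at day 3. It then climbed through 27.9 and 29.1 at day 6 to 79.2 and 84.2 at day 9, and ESC held 74.9 and 74.0. The fall at day 3 was 2.36 on the log2 scale (SE 0.05, edgeR adjusted p = 5.1e-14) and the rise from day 6 to day 9 was 1.52 (SE 0.05, edgeR adjusted p = 3.3e-11). The ESC and MEF libraries overlapped (log2 difference -0.01, SE 0.05, edgeR adjusted p = 0.81; 0.33 when libraries were scaled by total reads only). ESC was below day 9 by 0.14 on the log2 scale (edgeR adjusted p = 0.014), but the adjusted p was 0.41 with DESeq2 and 0.095 with total-read scaling, and the TPM was 4.57 at day 9 and 4.62 in ESC, so these 2 groups have no firm order. The 8 mural markers summed to 6195 to 6277 CPM in MEF, 1934 to 1997 at day 3, 203 to 215 at day 6, 125 to 132 at day 9 and 789 to 842 in ESC. All 8 had a mean of at least 1 CPM in MEF, 5 at day 3, 4 at day 6 and day 9, and 6 in ESC. The defining mural marker Rgs5 had means of 22.4 CPM in MEF, 0.102 at day 9 and 3.66 in ESC, and Des, named after its values were seen, was at 69.9% of its MEF level in ESC. Their part in the Notch3 values was not tested.

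Notch4, a receptor known from endothelium, was the least abundant receptor in MEF, with 28 and 25 reads (1.03 and 0.762 CPM). It had 2.34 and 1.42 CPM at day 3, 14.8 and 15.2 at day 6, 17.7 and 18.4 at day 9, and 18.7 and 19.2 in ESC. The 2 day 3 libraries differed from each other more than those of any later group did, and the rise from day 3 to day 6 was 7.89-fold (log2 2.98, SE 0.15, edgeR adjusted p = 3.7e-10; 2.36 with an adjusted p of 0.05, not past the threshold, on log2(TPM + 0.1)). Its neighbours in the order of stages from day 6 upward did not differ past the threshold, with log2 differences of 0.27 (day 9 and day 6, edgeR adjusted p = 0.071) and 0.07 (ESC and day 9, edgeR adjusted p = 0.55). Day 3 was above MEF by 1.1 on the log2 scale (SE 0.25, edgeR adjusted p = 0.0013), a call that was lost without day 3 replicate 1 (0.68) or MEF replicate 2 (0.88), and with DESeq2 (0.97). On the log2(TPM + 1) and log2(TPM + 0.1) scales the day 3 difference was 0.06 and -0.13. Of 8 endothelial markers, 3 had a mean of at least 1 CPM in MEF and at day 3, and 7 at day 6 and day 9. Their summed level was 9.36 to 10.4 CPM in MEF, 130 to 133 at day 3, 135 to 140 at day 6, 86.8 to 88.4 at day 9 and 111 to 115 in ESC. The angiopoietin receptor Tek made up most of this sum at day 3, at 121 CPM, and Pecam1 most of it in ESC, at 99.0 CPM (both named after their values were seen, Pecam1 also as a defining marker). The defining marker Cdh5 had means of 0.138, 7.54, 9.39, 3.39 and 0.1 CPM in the order of the stages, and the part of these markers' cells in the Notch4 values was not tested.

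Levels of different genes were compared per length, as TPM of each gene's leading coding transcript, since short noncoding transcripts of some members weigh heavily in a summed TPM (the leading transcript made up 11% of the summed TPM of Notch1 in MEF and 3.4% of that of Notch4). Over the 4 receptors this TPM summed to 11.8 ± 0.707 (SD, n = 2) in MEF and 10.4 ± 0.424 at day 3. Day 6 and ESC had the lowest sums, 9.51 ± 0.099 and 9.52 ± 0.191, and day 9 the highest, 12.8 ± 0.0707 (SD, n = 2). The sum thus moved within a narrow range while its makeup changed. In MEF Notch3, Notch2 and Notch1 held 37.5%, 33.2% and 29.0% of it. At day 3 Notch2 held 68.9% ± 0.71 (SD, n = 2), and Notch3 8.4% ± 0.42. In ESC Notch3 held 48.6% ± 0.07 (SD, n = 2), Notch1 21.7%, Notch2 17.6% and Notch4 12.1%.

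**Figure D2:**
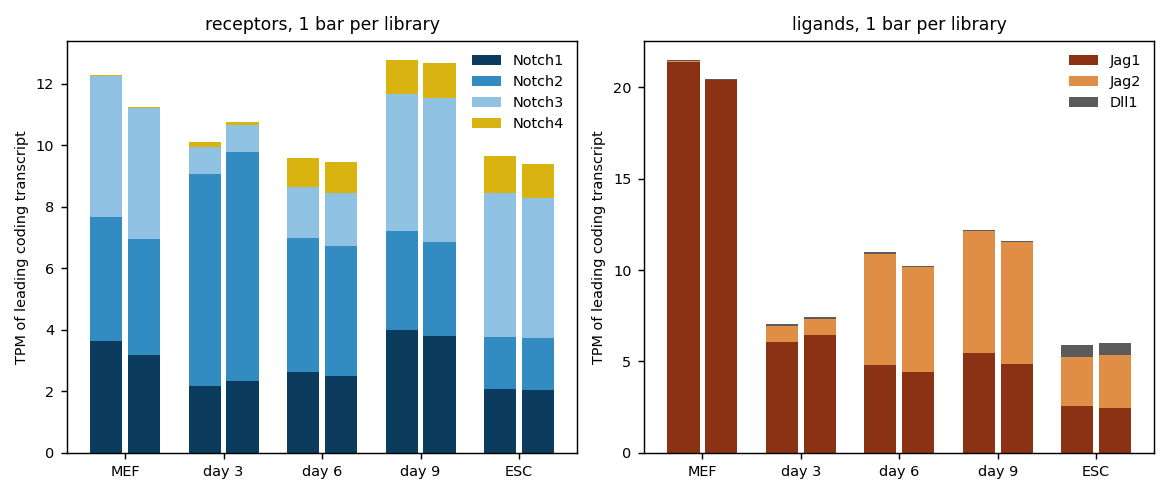
TPM of the leading coding transcript (vertical axis) stacked over the 4 receptors (left) and the 3 ligands (right), with 1 bar per library, grouped by stage. Notch2 made up most of the receptor bar at day 3, and Jag1 nearly the whole ligand bar in MEF, while from day 6 on Jag1 and Jag2 are of similar size; with all transcripts summed Jag1 is the higher of them in each group.

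Among the ligands, Jag1 fell and Jag2 rose between MEF and day 6, and Dll1 was high in ESC. Jag1, a ligand of many mesenchymal and vascular cells, had 268 and 261 CPM in MEF, 77.1 and 79.3 at day 3, 62.5 and 57.0 at day 6, 71.8 and 69.4 at day 9, and 29.3 and 29.1 in ESC. MEF was far above all other groups and ESC below all of them. It fell 3.38-fold by day 3 (log2 -1.76, SE 0.04, edgeR adjusted p = 8.2e-14), stayed within 2-fold from there to day 9, and fell again by 1.27 on the log2 scale from day 9 to ESC (SE 0.05, edgeR adjusted p = 1.6e-11). Jag2, its close relative, was near absent from MEF, with 11 and 6 reads (0.406 and 0.183 CPM). It had 7.3 and 6.77 CPM at day 3, 49.8 and 47.5 at day 6, 58.2 and 58.6 at day 9, and 21.2 and 23.0 in ESC. The rise was 24.49-fold by day 3 (log2 4.61, SE 0.2, edgeR adjusted p = 6.5e-11) and a further 6.91-fold by day 6 (log2 2.79, SE 0.07, edgeR adjusted p = 6e-13). The size of the first step rests on the 17 MEF reads: its log2 fold change was 5.24 without MEF replicate 1 and 4.11 without MEF replicate 2, and 0.85, under the minimum, on log2(TPM + 1). Jag2 was higher at day 9 than in ESC, by 1.4 on the log2 scale (SE 0.06, edgeR adjusted p = 7.5e-11).

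Dll1, a Delta-type ligand of embryonic tissues, had 14 and 14 reads in MEF, 25 and 39 at day 3, 26 and 16 at day 6, 18 and 29 at day 9, and 213 and 216 in ESC. The CPM values were 0.517 and 0.427, 0.673 and 1.15, 0.764 and 0.484, 0.579 and 0.732, and 6.28 and 5.77. The day 6 libraries overlapped with those of MEF, day 3 and day 9, and the ESC libraries stood above all 8 others. ESC exceeded day 9 by 3.18 on the log2 scale (SE 0.3, edgeR adjusted p = 3.1e-07), a 9.07-fold rise. The log2 difference between day 3 and MEF was 0.95 (SE 0.36, edgeR adjusted p = 0.034), under the 2-fold minimum, and passed it without day 3 replicate 1 (1.29) and with libraries scaled by total reads only (1.15).

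In TPM of the leading transcripts, Jag1 held 99.6% of the total of the 3 ligands in MEF and 86.5% ± 0.28 (SD, n = 2) at day 3. Jag2 held 12.0% ± 0.78 at day 3 and 55.8% ± 0.78 at day 6. Its share was 56.2% ± 1.91 at day 9, and in ESC it was 47.2% ± 1.56 (SD, n = 2). At ESC the Jag1 share (41.8% ± 1.77) was close to that of Jag2, and Dll1 held 11% ± 0.21 (SD, n = 2), against at most a mean of 1.5% in the other groups. Which of Jag1 and Jag2 was higher from day 6 on depended on the transcripts counted, since the leading transcript made up 65.7% of the Jag1 TPM at day 6 and the only transcript 100% of that of Jag2. With all transcripts summed, Jag1 had 7.02 ± 0.637 TPM and Jag2 5.92 ± 0.234 at day 6, 7.76 ± 0.646 and 6.69 ± 0.00849 at day 9, and 3.13 ± 0.0299 and 2.81 ± 0.131 in ESC (SD, n = 2), so Jag1 was the higher. The total ligand TPM over leading transcripts was 21 ± 0.707 in MEF and 7.25 ± 0.29 at day 3. It came to 10.6 ± 0.566 at day 6 and 11.9 ± 0.424 at day 9, and ESC had the lowest sum, 5.96 ± 0.0849 (SD, n = 2).

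The target genes Hes1 and Hey1 were highest at day 3 and had both fallen by day 6, whereas Heyl was already near 0 at day 3. Hes1, the most abundant of the 3 per length, had 147 and 150 CPM in MEF, 249 and 204 at day 3, 43.0 and 45.7 at day 6, 41.1 and 39.4 at day 9, and 32.4 and 35.0 in ESC. The 2 day 3 libraries had the widest spread (SD 31.9 CPM), and both were above both MEF libraries. The day 3 difference from MEF was 0.61 on the log2 scale (SE 0.07, edgeR adjusted p = 2.6e-06), under the 2-fold minimum. The fall to day 6 was 5.1-fold (log2 -2.35, SE 0.08, edgeR adjusted p = 5e-12), and the day 6 and day 9 levels did not differ past the threshold (log2 -0.14, edgeR adjusted p = 0.23). Hey1, a repressor that acts in vascular and heart development, had 10.7 and 10.9 CPM in MEF, 24.8 and 23.6 at day 3, 3.44 and 3.21 at day 6, 2.83 and 2.63 at day 9, and 3.68 and 3.66 in ESC. It rose 2.24-fold by day 3 (log2 1.17, SE 0.08, edgeR adjusted p = 1.6e-08) and fell 7.29-fold from there to day 6 (log2 -2.87, SE 0.1, edgeR adjusted p = 6.7e-12). From day 6 on its groups stayed within 2-fold of each other.

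Heyl, the third repressor, had 28.0 and 27.9 CPM in MEF, from 1674 reads in both libraries together. Day 3 held 4 and 5 reads, day 6 held 1 and 0, and day 9 held 1 and 1. ESC held 61 and 67 reads, or 1.8 and 1.79 CPM. The ratio of MEF to day 3, from the summed reads and the scaled depths, was 220 with a 95% exact counting interval of 116 to 483, and that of ESC to day 9 was 63.4 (17.2 to 529). The edgeR adjusted p was 3.1e-13 for day 3 with MEF and 6.8e-09 for ESC with day 9. Day 3 exceeded day 6 by a ratio of 8.51 (1.18 to 373) on 9 and 1 reads (edgeR adjusted p = 0.017), a call that was lost without day 3 replicate 2 (0.078), without day 6 replicate 2 (0.16) and with DESeq2 (0.082). Over all its alternatives this adjusted p ran from 0.013 to 0.98. No fold is given between day 9 and day 6, where no library exceeded the floor of 3 reads. The intervals cover counting error only.

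The 5 groups were also ordered by the level of each gene, and neighbours in that order were compared with the same edgeR fit. Of 40 such neighbouring pairs, 10 had an adjusted p of 0.05 or more, which does not show that their levels were equal. These were MEF and ESC for Notch3, ESC, day 9 and day 6 for Notch4, and day 3, day 9, day 6 and MEF for Dll1. They also were day 6 and day 9 for Hes1, ESC, day 6 and day 9 for Hey1, and day 9 and day 6 for Heyl. In order from the highest, Notch1 ran day 9, MEF, day 6, day 3, ESC, and Notch2 ran day 3, day 6, MEF, day 9, ESC. Jag1 ran MEF, day 3, day 9, day 6, ESC, and Jag2 ran day 9, day 6, ESC, day 3, MEF. In these 4 genes each neighbouring pair differed at the adjusted p, the weakest being day 6 and MEF in Notch2 (log2 0.12, edgeR adjusted p = 0.016). These orders rest on TMM scaling, and pairs outside the 5 comparisons read below were not fitted with the alternatives. Total-read scaling moved the median over all genes for day 3 with MEF from 0.08 to 0.285 in log2. Small steps, such as day 9 with MEF in Notch2 (log2 -0.25) and ESC with day 3 in Notch1 (log2 -0.19), therefore have no firm order.

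The comparisons were then read over all 10 genes, with a call defined as an adjusted p under 0.05 and a change of at least 2-fold. At day 3 against MEF, Notch4, Jag2 and Hey1 rose, and Notch3, Jag1 and Heyl fell. These were 6 of 10 genes, where 29.1% of the 20165 genes tested were called, 14.6% higher and 14.5% lower. The other 4 passed the adjusted p with changes under 2-fold. The median log2 fold change was 0.73 for the 10 genes and 0.08 for all genes tested.

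From day 3 to day 6, Notch4 and Jag2 rose again, and the targets Hes1 and Hey1 fell. Heyl was also called lower, but on 9 and 1 reads, and this call was lost with DESeq2. These 5 of 10 stand beside 19.5% of all genes called, 9.26% higher and 10.2% lower. Notch3 was 1.95-fold higher, just under the minimum. The median was -0.46 for the 10 genes and 0.03 for all tested. From day 6 to day 9, between the 2 sorted groups, Notch3 was the only one of the 10 that was called, 2.87-fold higher, and 7.87% of all genes were called, 5.18% higher and 2.68% lower. Of the other 9, Notch1, Notch2, Jag1 and Jag2 passed the adjusted p with changes under 2-fold.

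From day 9 to ESC, Dll1 and Heyl rose, and Notch1, Notch2, Jag1 and Jag2 fell. These were 6 of 10, against 32.9% of all genes called, 18.6% higher and 14.3% lower. The median was -0.2 for the 10 genes and 0.0 for all tested. Between ESC and MEF, Notch4 (21.34-fold), Jag2 (76.94-fold) and Dll1 (12.74-fold) were higher, and Notch2, Jag1, Hes1, Hey1 and Heyl were lower, by 2.45-fold, 9.06-fold, 4.41-fold, 2.94-fold and 15.57-fold. The log2 fold change behind the Jag2 value was 6.27, and 6.88 without MEF replicate 1. Notch2 fell short of the minimum with total-read scaling (-0.95) and on log2(TPM + 1) (-0.87), and Hey1 on the latter (-0.91). The 8 of 10 called stand beside 46.1% of all genes called, 25.5% higher and 20.6% lower. All 3 targets were lower in ESC.

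**Figure D3:**
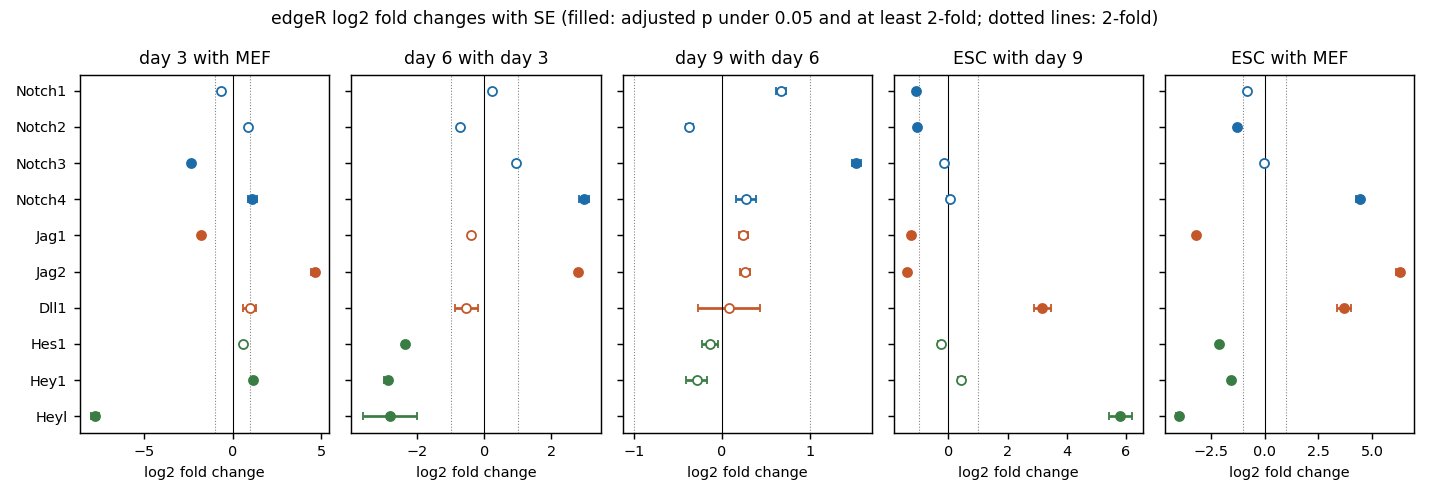
edgeR log2 fold changes (horizontal axis, own scale in each panel) of the 10 genes (vertical axis) in the 5 comparisons, with bars for the SE, filled points for calls and dotted lines at 2-fold. Heyl is left out of day 9 with day 6, where its reads were at or under the floor of 3; in that panel Notch3 alone passes the line.

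ESC were grown on feeder cells, and RNA of fibroblast genes was found in these libraries. The ESC level of the 10 fibroblast markers was 1.1% to 14.0% of the MEF level, with a median of 8.6%. Thy1, a fibroblast surface marker, had 161 CPM in ESC and 9.55 at day 9. Heyl, at 6.4% of its MEF level, and Jag1, at 11%, lay within the markers' range. Hes1 (22.7%), Hey1 (34.0%), Notch2 (40.7%), Notch1 (56.7%) and Notch3 (99.1%) lay above it, and Notch4, Jag2 and Dll1 were higher in ESC than in MEF. The part of fibroblast RNA in the ESC values was not tested for any of the 10 genes, inside or above the markers' range. At day 9 the fibroblast markers summed to 103 to 110 CPM, from 0 reads for Lum to a mean of 60.1 CPM for Fbn1, both matrix genes named after their values were seen. As a share of the MEF level, the day 9 level of the markers was 0% to 2.5%, and that of Jag1 was 26.7%. Jag1 had 71.8 and 69.4 CPM at day 9, and the part of fibroblast RNA in these values was not tested.

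**Figure D4:**
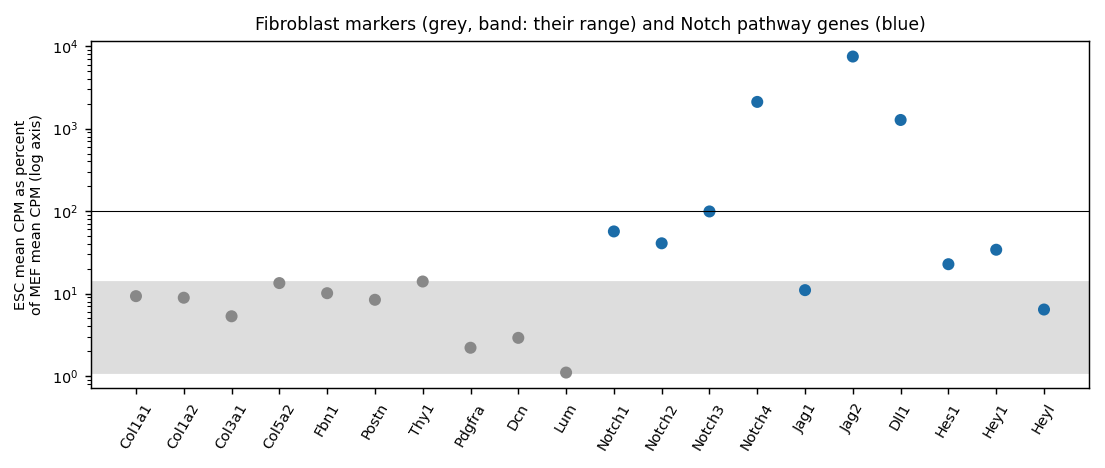
ESC mean CPM as a percentage of the MEF mean (vertical log axis) for 10 fibroblast markers (grey, with a band over their range of 1.1% to 14.0%) and the 10 Notch pathway genes (blue), with a line at equal levels. Heyl and Jag1 lie in the band, the other 8 genes above it.

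Markers of other cells gave the following values. The 6 keratinocyte markers summed to 0.591 to 2.87 CPM in MEF, day 3 and day 6 libraries, 42.8 to 45.1 at day 9 and 15.5 to 15.8 in ESC. At day 9 the keratins Krt6a (26.3 CPM) and Krt17 (14.6 CPM), named after their values were seen, made up most of this sum, and the defining gene Krt5 had a mean of 0.517 CPM. The 6 blood markers summed to 9.75 to 11.3 CPM in MEF, 197 at day 3, 375 to 379 at day 6, 299 to 313 at day 9 and 104 to 106 in ESC. At day 6 Laptm5, a lysosomal gene named after its values were seen, had 372 CPM and the defining gene Ptprc 0.0743. The 6 neural markers summed to 96.2 to 97.5 CPM in MEF, 1.48 to 1.66 at day 3, 12.8 to 13.4 at day 6, 27.9 to 29.2 at day 9 and 113 to 116 in ESC. Tubb3, a neuronal tubulin named after its values were seen, made up most of the sum in MEF (95.4 CPM) and in ESC (91.3 CPM). Their part in the Notch pathway values was not tested.

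The deposited transcript estimates placed most reads of each gene on its leading coding transcript. Jag2 and Notch3 have 1 transcript each in the tables, and Notch2-001 held 99.7% to 100% of Notch2 reads in every library. Hes1-001 held 79.3% to 85.3% across the 10 libraries, and no group stood apart. Hey1-001 held 91.9% and 94.0% in MEF, 82.7% and 80.1% at day 3, and 79.8% and 82.8% at day 6. It held 82.5% in day 9 replicate 2 and 100% and 88.7% in ESC, and day 9 replicate 1 had under 100 reads. The rest at day 3 was assigned to 3 transcripts annotated as retained introns. Notch4-001 held 87.5% to 91.3% at day 6 and day 9 and 82.3% and 76.8% in ESC, where Notch4-012, a transcript annotated for nonsense-mediated decay, took 4.9% and 7.6%. These shares are model estimates from single reads of 50 nt and were not tested.

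The genes whose pattern over the 10 libraries was most like that of each member were found among 11178 protein-coding candidates, by the root mean square (RMS) difference of log2 CPM after centring each gene. Notch2 had the closest partners, Plekhm2 (RMS 0.077) and Aida (0.08), against a median over all candidates of 0.8. Notch1 was closest to Mcam (0.102), an adhesion molecule of endothelial and mural cells, and Trpm4 (0.179). For Notch3 these were Ppfia3 (0.241) and Kazn (0.29), and for Notch4 Clstn3 (0.246) and Syne4 (0.346). Jag1 was closest to Tpbg (0.231) and Ttyh3 (0.251). Jag2 was closest to Plet1 (0.404) and to Apela (0.415), a peptide hormone gene of early embryos, and Dll1 to Gm13251 (0.289) and Tcea3 (0.39). Hes1 was closest to Id3 (0.223), an inhibitor of helix-loop-helix factors, and Socs3 (0.235), a feedback inhibitor of cytokine signalling, and Hey1 to Cebpa (0.238) and again Socs3 (0.271). Heyl was closest to Il1rl1 (0.354) and Clca3a1 (0.497). Among the members themselves, Hes1 and Hey1 were the closest pair (0.3), followed by Notch1 with Notch2 and Notch2 with Hes1 (both 0.74). Jag2 and Heyl were the farthest apart (5.79). The value of 0.74 was above the RMS of Notch1 (0.4) and of Notch2 (0.695) about their own means. It was also above the median of Notch1 over all candidates (0.6), so for Notch1 with Notch2 it does not show a shared pattern. These are descriptions over 10 libraries in 5 groups.

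Of 44 other genes of the pathway, 43 were tested, all but Dll4, which had at most 0.187 CPM in any library. Against MEF, 10 were higher and 5 lower at day 3, beside 14.6% and 14.5% of all genes tested. Day 6 against day 3 gave 3 higher and 6 lower (all genes: 9.26% and 10.2%), and day 9 against day 6 gave 2 and 2 (5.18% and 2.68%). ESC gave 5 higher and 9 lower against day 9 (18.6% and 14.3%) and 4 and 17 against MEF (25.5% and 20.6%). In both directions together the counts were 15, 9, 4, 14 and 21 of 43, near the background of 29.1%, 19.5%, 7.87%, 32.9% and 46.1%. The median log2 fold change of ESC with MEF was -0.7 for the 43 genes and 0.1 for all tested.

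Further target genes were divided at day 3. Of 5, Hes5, Hey2 and Nrarp were higher than in MEF, and Hes7 and Dtx1 were lower, where 14.6% of all genes were called higher and 14.5% lower. Hes7 and Dtx1 were low in both groups, with means of 0.702 and 0.621 CPM in MEF and 0.269 and 0.153 at day 3. The log2 fold change of Hes7 was -1.37 (SE 0.49, edgeR adjusted p = 0.023). Nrarp, which encodes a feedback inhibitor of the pathway, had 1.99 and 1.98 CPM in MEF, 96.8 and 92.4 at day 3, 52.1 and 53.2 at day 6, 43.8 and 46.7 at day 9, and 3.12 and 3.98 in ESC. It rose by 5.57 on the log2 scale at day 3 (SE 0.09, edgeR adjusted p = 1.1e-15) and fell by 3.67 from day 9 to ESC (SE 0.08, edgeR adjusted p = 3.9e-14). Hes5, another helix-loop-helix repressor, had 2 reads in MEF and 629 at day 3 in the 2 libraries together, a ratio of 265 with a 95% counting interval of 73.1 to 2.2e+03. Its level was 10 and 7.6 CPM at day 3 and at most 0.786 CPM in every library of the other 4 groups. Dtx1 took the opposite course, with a mean of 0.621 CPM in MEF, 0.153 at day 3, 3.5 at day 9 and 22.7 in ESC. Hey2, named here after its values were seen, was at 4.99 and 4.54 CPM in MEF, 19.5 and 21 at day 3, and 1.09 and 0.855 in ESC.

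Genes that modify or relay the signal also differed by stage. Lfng, which encodes a Fringe enzyme that adds a sugar to Notch receptors and alters their response to ligands, had 11.9 and 12.5 CPM in MEF, 70.6 and 68.3 at day 3, 83.2 and 84.5 at day 6, 53.7 and 53.3 at day 9, and 2.5 and 2.56 in ESC. It fell by 4.4 on the log2 scale from day 9 to ESC (SE 0.07, edgeR adjusted p = 7.8e-16). Mfng, a second Fringe, had 2 reads in MEF and 591 in ESC, a ratio of 248 (68.3 to 2.05e+03). Rbpj had 156 and 150 CPM in MEF, 105 and 105 at day 3, 124 and 117 at day 6, 114 and 118 at day 9, and 434 and 408 in ESC, where it rose by 1.86 on the log2 scale from day 9 (SE 0.04, edgeR adjusted p = 2.6e-14). The Mastermind genes Maml2 and Maml3, named after their values were seen, went the other way, from means of 42.3 and 20.3 CPM at day 9 to 6.7 and 1.74 in ESC. Of the 8 genes of the nuclear complex, 5 were lower and 1, Rbpj, was higher in ESC than in MEF, beside 20.6% lower and 25.5% higher over all genes.

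Dlk1, a noncanonical ligand that is high in fetal mesenchyme, had 199 and 185 CPM in MEF and 12.9 and 11.7 at day 3 and so fell by 3.96 on the log2 scale (SE 0.07, edgeR adjusted p = 4e-15). Its relative Dlk2 had 1.18 and 1.25 CPM in MEF, 37.0 and 37.5 at day 3 and 11.1 and 10.5 at day 6. Dlk2 fell by 1.78 on the log2 scale from day 3 to day 6 (SE 0.08, edgeR adjusted p = 2.5e-10). It fell by a further 1.47 from day 6 to day 9 (SE 0.11, edgeR adjusted p = 8.1e-08). Of the 10 genes of receptor processing, 4 were lower and 0 higher in ESC than in MEF, beside the same 20.6% and 25.5% (5 of the other 6 passed the edgeR adjusted p with changes under 2-fold). Among the 4 was Aph1b, a subunit of gamma-secretase, which had already fallen by 1.8 on the log2 scale from day 3 to day 6 (SE 0.09, edgeR adjusted p = 2.8e-10). Dtx4, a Deltex ubiquitin ligase, had 16.4 and 19.1 CPM in MEF, 3.37 and 3.4 at day 3, 7.08 and 7.62 at day 6, 18.6 and 19.0 at day 9, and 5.86 and 5.69 in ESC. Like Notch3, it was low at day 3 and near its MEF values at day 9, and it fell again in ESC (log2 -1.71 from day 9, SE 0.09, edgeR adjusted p = 8.3e-10).

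**Figure D5:**
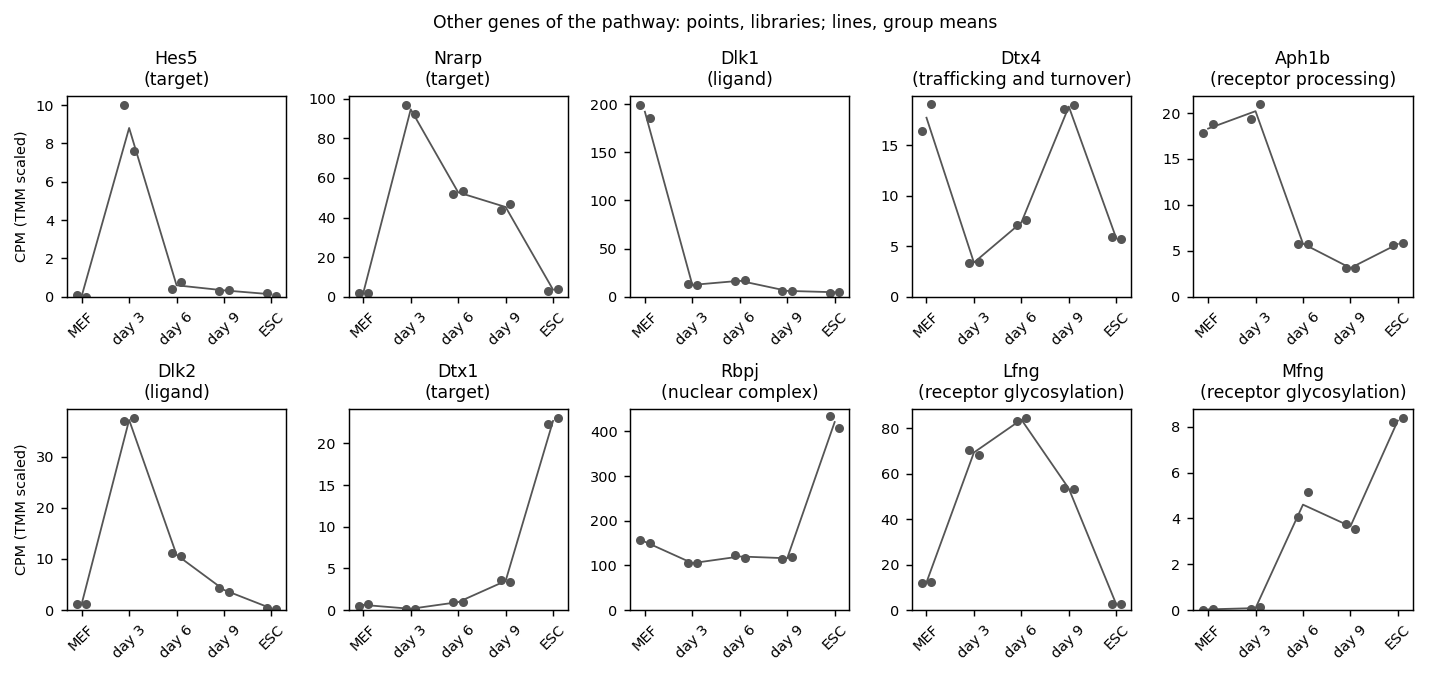
CPM (vertical axis, from 0, own scale in each panel) of the 10 other pathway genes that a fixed rule of size named, by group (horizontal axis), with 1 point per library and a line through the group means. Hes5 and Dlk2 peak at day 3, Nrarp and Lfng are high from day 3 to day 9 and low in MEF and ESC, and Rbpj and Dtx1 are highest in ESC.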

How the data were processed

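Per the labels' protocols, the kit for mRNA libraries was stranded, reads were single and 50 nt long, and the 10 libraries share a batch label. The authors quantified transcripts with Salmon 0.8.2, and the build is mm10, per the submitters' processing notes. The index, annotation and strand setting are not given in the sources used here. The deposited tables hold 109617 transcripts, each with its TPM value and its estimated count, per the file headers. The 10 tables give the same effective lengths. Groups came from sample titles.

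Estimated counts were summed per gene identifier in the transcript names and rounded. The filterByExpr function (minimum count 10, minimum total 15) left 20165 genes. Libraries were scaled with TMM. Group means were fitted over the 10 libraries together with edgeR 4.0.16 in R 4.3.3 (quasi-likelihood test), and p-values were adjusted by Benjamini-Hochberg over all genes tested. A call needs an adjusted p under 0.05 and a log2 fold change of 1 or more in size. SE is the size of the log2 fold change divided by the root of F. The 5 other pairs of groups were tested only for the order of stages, a step added after the data were seen. Ratios on few reads have exact 95% binomial intervals. Alternatives were DESeq2 1.42.0, no filter, 10 CPM in 2 libraries, total-read scaling, limma 3.58.1 on log2(TPM + 1) and log2(TPM + 0.1), only the 2 groups compared, no fold minimum, leaving out each replicate, and a replicate block. Annotation was GENCODE M21 (GRCm38). Python 3.11.15 was used with scipy 1.17.1, pandas 2.3.3, matplotlib 3.10.9 and numpy 2.4.6.

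The members, the pathway and marker lists and the rules were chosen with earlier results of these data known. All 10 members are named. Of the wider list, up to 2 called genes per comparison and direction with the largest change were named, where the higher group had 5 CPM or more and groups did not overlap. For each member the 2 protein-coding genes with the most similar pattern were named, among genes with a mean of 5 CPM or more (prior count 2).

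On simulated counts for day 3 with MEF (19212 genes tested), edgeR called 97% of 100 genes changed by 1.5 and 100% of 100 changed by 3 on the log2 scale, with 11 unchanged genes called. The changed genes had a mean of at least 1 CPM and were altered in day 3 only, equally in both directions. These rates therefore do not cover genes on few reads or changes in as many genes as in the data. The biological coefficient of variation was 3.75%. Chi-square per degree of freedom between replicates was 2.78 to 5.05, so each library was counted as 1 sample. The design text speaks of biological replicates and does not say whether they were separate cultures, so p-values measure the spread between these libraries. With 2 against 2, an exact permutation test cannot go below 0.333.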

Additional observations from a re-analysis of the deposited data

How the results depend on the processing

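Of the 10 genes, 6 were called for day 3 against MEF, 5 for day 6 against day 3, 1 for day 9 against day 6, 6 for ESC against day 9 and 8 for ESC against MEF. Counts below keep this order. Without the fold minimum the number was 10, 9 and 5 in the first 3 comparisons. With limma on log2(TPM + 0.1) it was 3 for day 6 with day 3, and on log2(TPM + 1) it was 3 for ESC with day 9. Over all genes, the main counts of 5873, 3926, 1586, 6637 and 9290 became 13094, 11387, 6981, 14028 and 15442 without the fold minimum, 3022, 2014, 775, 2966 and 5067 with the stricter filter, which tests fewer genes. They became 2663, 1401, 382, 2768 and 5055 on the log2(TPM + 1) scale, and 991 for day 9 with day 6 on the log2(TPM + 0.1) scale. The sign of a called change turned once: Notch4 in day 3 with MEF had a log2 fold change of -0.13 with limma on log2(TPM + 0.1). That scale uses TPM summed over transcripts, which for Notch4 was 0.974 and 1.79 in MEF and 3.25 and 0.406 at day 3. The TPM of its leading transcript had means of 0.0467 in MEF and 0.119 at day 3. The cause of the turn was not tested.

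Leaving out each replicate gave 5 to 6, 4 to 5, 1 to 1, 6 to 6 and 8 to 8 calls among the 10 genes, and 5513 to 5612, 3592 to 3687, 1366 to 1429, 6205 to 6401 and 8888 to 9058 over all genes; the lone library was assumed to vary like the other groups. Of 200 single-gene results 195 kept their call, and the 5 others concern Notch4, Dll1 and Heyl as given above. Between groups, deviations of equal replicate numbers from the group means had correlations of -0.02 to 0.022 over all genes tested. Counting noise in genes on few reads pulls such values toward 0, so they cannot exclude a shared preparation. A replicate block gave 6, 5, 1, 6 and 8 calls among the 10 genes and 5748, 3811, 1501, 6496 and 9161 over all genes.

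Scaling by total reads without TMM moved the median over all genes tested, in log2, from 0.08 to 0.285 (day 3 with MEF) and from 0.099 to 0.438 (ESC with MEF). Calls were then 3809 higher and 2483 lower against 2950 and 2923, and 6553 and 3152 against 5142 and 4148. Among the 10 genes, Notch2 (1.06) and Dll1 (1.15) then passed at day 3 and Notch3 (1.03) at day 6, while Notch2 fell short of 2-fold for ESC with day 9 (-1.0) and ESC with MEF (-0.95). On the log2(TPM + 1) scale, which compresses low values, calls were also lost for Jag2 at day 3 (0.85), Notch2 for ESC with day 9 (-0.62) and with MEF (-0.87), Heyl for ESC with day 9 (0.72) and Hey1 for ESC with MEF (-0.91). Notch1 for ESC with day 9 was lost on both TPM scales at the adjusted p (0.17); the cause was not tested. The stricter filter and some fits to 2 groups left 9 of the 10 genes. Few reads limit Jag2 in MEF (17 reads in both libraries), Dll1 outside ESC, Notch4 in MEF and Heyl from day 3 to day 9.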
